A study of Danio rerio with 6 samples.

Results

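The genes described here are 38 genes of DNA replication, of the G1/S transition and of mitosis, chosen by name, with earlier results of these arrays known. A gene was taken as measured where a probe set named it alone, and the brightest such probe set stood for it. In this way 33 of the 38 were measured, among 19260 genes measured on the array in all. They comprised 14 of 17 replication genes, all 4 G1/S genes (the cyclin genes *ccnd1*, *ccne1* and *ccne2* and the kinase gene *cdk2*) and 15 of 17 mitosis genes. No probe set named *mcm2*, *rrm2*, *mki67* or *tpx2*, and *mcm5* shared its only probe set with *hmox1a*. The arrays came from whole zebrafish larvae at 4 dpf. The 3 WT arrays are of the Tu strain, and the 3 *il7r*-/- arrays are of larvae homozygous for a short frameshift deletion made with CRISPR/Cas9. Each array held RNA from a pool of larvae, all mutants came from 1 line, and the methods describe the replicates as separate batches of larvae. The deposited values, made with RMA (background correction, normalization between arrays and a summary for each probe set), were read as log2. Every change is the *il7r*-/- mean minus the WT mean, in log2 units.

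Cells that are about to divide first license their replication origins, by loading the MCM helicase with the help of Cdc6 and Cdt1. In S phase the helicase is activated by Cdc45 and the GINS complex, and the polymerases copy the DNA with the sliding clamp PCNA, the single-strand binding protein RPA and a supply of deoxynucleotides. Cyclin-dependent kinase 1 with cyclins A and B then drives mitosis, in which the Aurora and Polo-like kinases, the Bub checkpoint proteins and the kinesin motors build and control the spindle. In the zebrafish larva, dividing cells persist in the rim of the retina, in the ventricular zones of the brain and in growing organs such as the gut. Because RNA came from whole larvae, fewer dividing cells and less RNA in each of them cannot be told apart.

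The median of all probe sets was 3.41 to 3.44 in the 6 arrays. WT replicate 3 stood apart: over the probe sets, which are not independent of each other, its Pearson correlation was 0.965 with either other WT array, and these correlated at 0.977. The median level of marker lists was 10.02 to 10.36 in the arrays for skeletal muscle and 8.27 to 8.43 for neurons, but 3.93 to 4.42 for liver and 3.83 to 4.14 for neutrophils and macrophages. It was 2.87 to 3.37 for erythroid cells and 2.51 to 2.71 for thymus and T cells, under 3.9, below which the dimmest tertile of genes lay. The *il7r* probe set itself was also below 3.9, at 1.40, 1.80 and 1.76 in WT and 1.42, 1.64 and 1.71 in *il7r*-/- larvae, and a short deletion need not alter the level of a transcript, so it does not check the labels. Of the members, 11 had a mean below 3.9 (6 replication, 1 G1/S and 4 mitosis genes), and the sizes of their changes are less certain. With 6 arrays, an exact permutation test of 3 against 3 cannot give a p below 0.1.

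None of the 33 members passed the test for a change in *il7r*-/- larvae. A member was called at a Benjamini-Hochberg adjusted p under 0.05 from limma, taken over all 75212 probe sets, together with a change of more than 1.5-fold. This was met by 0.298% of all probe sets and 0.234% of all genes, and 0.0519% of all genes were higher and 0.182% lower. The helicase gene *mcm3* had the lowest adjusted p of the members (0.325), and the other 32 had 0.536 or more. Without adjustment 1 member, *mcm3*, had a p under 0.05, where 12.3% of all genes did. The gene-by-gene test of the study's methods, run on the same values, called no member with or without adjustment. Of the members, 16 had a change above 0 and 16 below 0, and *ccnd1* had none, with a median of 0 (all genes -0.0233, of which 54.4% were below 0). The number of arrays limited what could be seen, since the standard error of a change was 0.0994 to 0.358. The 95% interval of the change lay within 1.5-fold in both directions (0.585 on the log2 scale) in 25 of the 33 members, namely 8 of 14 replication, 3 of 4 G1/S and 14 of 15 mitosis genes, against 67.6% of all genes. Apart from *mcm3*, the intervals reached from -0.71 in *tyms* to 0.77 in *aurkb*.

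**Figure D1:**
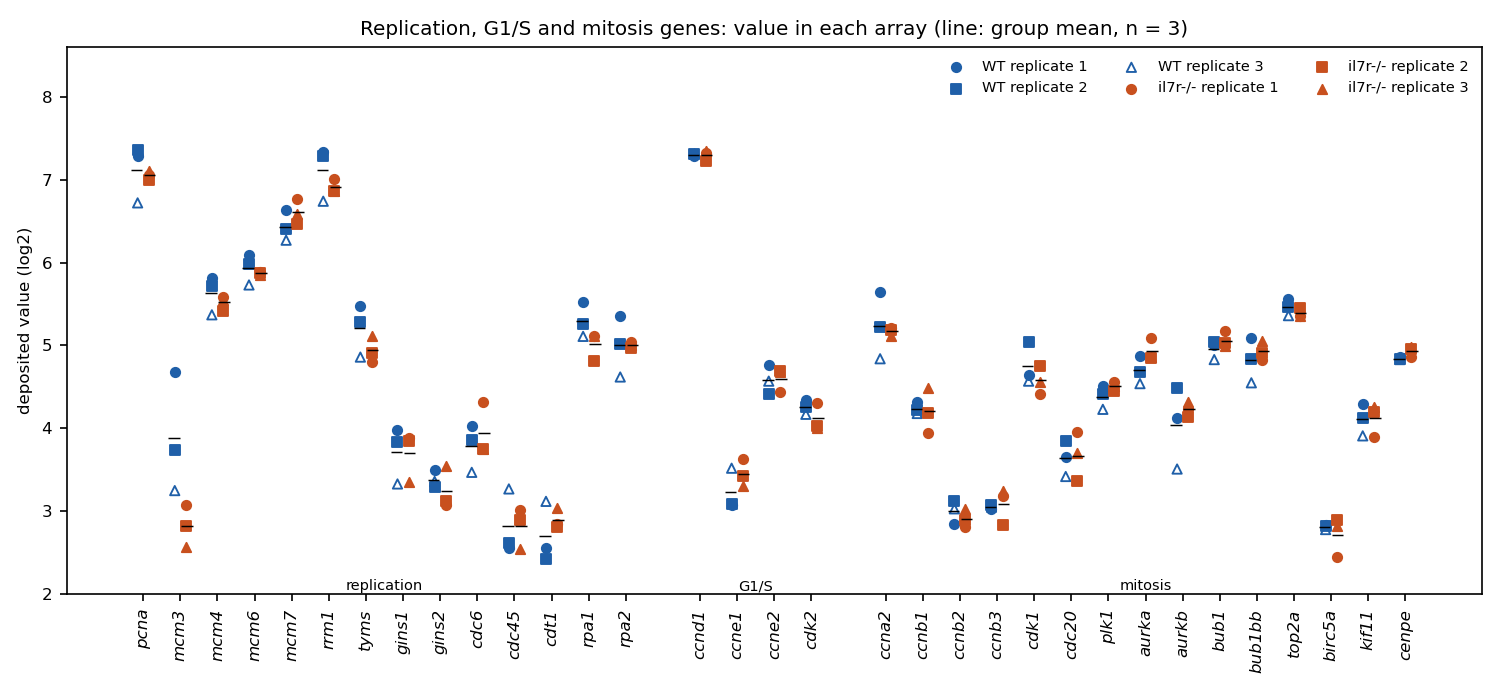
Deposited log2 value (vertical axis) of each of the 33 measured members (horizontal axis) in the 6 arrays, with WT in blue and *il7r*-/- in orange, WT replicate 3 as an open triangle and group means (n = 3) as short lines. The groups overlap in all members but *mcm3*, and WT replicate 3 lies below every other array in 15 of 33 genes.

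**Figure D2:**
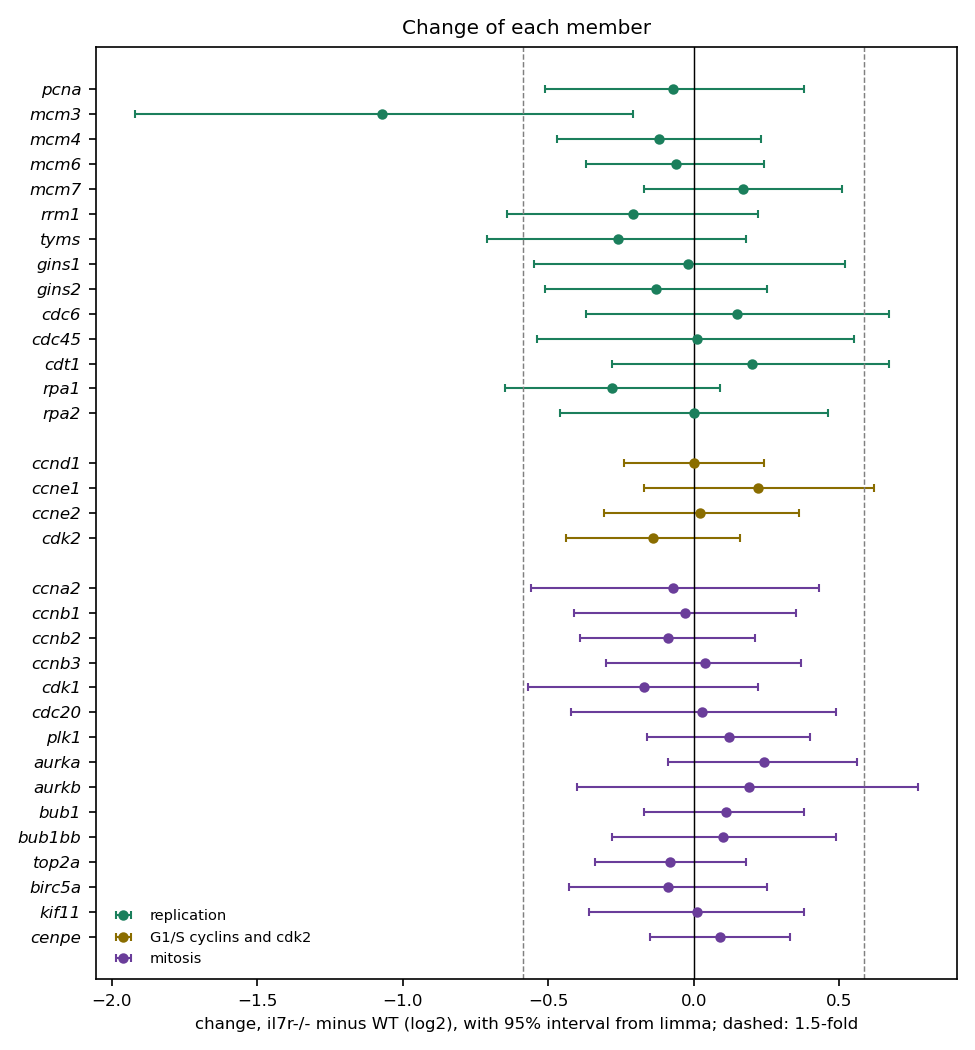
Change of each member, *il7r*-/- minus WT (points, log2) with its 95% interval from limma (bars, 3 arrays against 3), and dashed lines at 1.5-fold. The interval holds 0 in 32 of 33 members, *mcm3* being the exception, and stays within the dashed lines in 25.

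The licensing factors gave dim and variable signals. *cdt1*, which encodes the factor that brings the MCM helicase to the origin, had values of 2.56, 2.43 and 3.12 in WT and 2.85, 2.81 and 3.04 in *il7r*-/- larvae. WT replicate 3 was the highest of the 6 arrays and the other WT arrays were the lowest, so the groups overlapped. The change of 0.20 was the largest above 0 among the replication genes (standard error 0.198, 95% interval -0.28 to 0.67, adjusted p = 0.746 from limma). *cdc6*, whose product loads the helicase together with Cdt1, had values of 4.03, 3.86 and 3.47 in WT and 4.32, 3.75 and 3.75 in *il7r*-/- larvae. Its highest value lay in 1 *il7r*-/- array and its lowest in WT replicate 3, and the change was 0.15 (standard error 0.218).

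*mcm3* was the only member whose groups did not overlap, where 22.3% of all genes had no overlap (13.4% with every *il7r*-/- array below and 8.84% with every one above). *mcm3*, a subunit of the replicative helicase, had values of 4.68, 3.74 and 3.25 in WT and 3.08, 2.82 and 2.57 in *il7r*-/- larvae. The WT arrays spread over more than 1 log2 unit, and the lowest of them lay close to the highest *il7r*-/- array. The means were 3.89 ± 0.73 in WT and 2.82 ± 0.26 in mutants (SD, n = 3 each), which differed by -1.07 (standard error 0.358, 95% interval -1.92 to -0.21). The adjusted p was 0.325 from limma, so the fall was not called, and both means lay below 3.9, so its size is uncertain. The change ran from -1.39 to -0.67 over the fits that each left out 1 array, the former without WT replicate 3 and the latter without WT replicate 1.

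The other helicase subunits measured were brighter and close to equal between the groups. *mcm7* had values of 6.63, 6.40 and 6.27 in WT and 6.77, 6.47 and 6.58 in *il7r*-/- larvae. Its groups overlapped, and the change was 0.17 (standard error 0.143, adjusted p = 0.681). *mcm4* had a change of -0.12 (95% interval -0.47 to 0.23) and *mcm6* of -0.06 (-0.37 to 0.24). The estimates thus differed in sign from that of *mcm7* (95% interval -0.17 to 0.51). Each of these intervals held 0, so no direction was resolved for these subunits. In *mcm4*, *mcm6* and *mcm7* WT replicate 3 held the lowest value of all 6 arrays. The paralogs *mcm3l* and *mcm6l* were dim, with changes of 0.03 and 0.07. The probe set that *mcm5* shared with the haem oxygenase gene *hmox1a* had a change of -0.25 (adjusted p = 0.593) and cannot be given to either gene.

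Among the factors that activate the helicase, *cdc45* had values of 2.56, 2.62 and 3.27 in WT and 3.02, 2.90 and 2.55 in *il7r*-/- larvae. Its highest value was that of WT replicate 3, as in *cdt1*, and its change was 0.01 (standard error 0.229). The GINS subunit genes *gins1* and *gins2* had changes of -0.02 and -0.13, with *gins1* lowest in WT replicate 3 and in 1 *il7r*-/- array (3.33 and 3.35). All 3 genes lay below 3.9, in the dim range.

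The clamp gene *pcna*, which is widely used as a marker of cells in S phase, had values of 7.29, 7.36 and 6.72 in WT and 7.06, 7.0 and 7.11 in *il7r*-/- larvae. All *il7r*-/- arrays lay between WT replicate 3, the lowest, and the other WT arrays. The means were 7.12 ± 0.35 in WT and 7.06 ± 0.06 in mutants (SD, n = 3), a change of -0.07 (standard error 0.186, 95% interval -0.51 to 0.38, adjusted p = 0.919). *rpa1*, the large subunit gene of the single-strand binding protein, had values of 5.52, 5.26 and 5.11 in WT and 5.12, 4.81 and 5.12 in *il7r*-/- larvae. Its *il7r*-/- arrays overlapped WT replicate 3 alone, and its change was -0.28 (standard error 0.155, adjusted p = 0.536). The change of *rpa2*, the gene of the middle subunit, was 0.00 (95% interval -0.46 to 0.46), with WT values of 4.62 to 5.36 on both sides of the *il7r*-/- values of 4.97 to 5.04.

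Both measured members that serve deoxynucleotide supply, *rrm1* and *tyms*, had changes below 0 that did not pass the test. *rrm1*, the large subunit gene of ribonucleotide reductase, had values of 7.33, 7.29 and 6.74 in WT and 7.01, 6.86 and 6.86 in *il7r*-/- larvae. Again the *il7r*-/- arrays lay between WT replicate 3 and the other WT arrays, and the change was -0.21 (standard error 0.180, adjusted p = 0.695). *rrm1* was the only member on the chromosome of *il7r* in the GRCz12tu assembly. *tyms*, which encodes thymidylate synthase, had values of 5.48, 5.28 and 4.86 in WT and 4.80, 4.91 and 5.12 in *il7r*-/- larvae. All its *il7r*-/- arrays lay below the WT arrays other than WT replicate 3, which lay among them, and the change was -0.26 (standard error 0.186, adjusted p = 0.628). Over the 14 replication genes the median change was -0.065, and 9 were below 0.

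Changes of the G1/S genes lay between -0.14 and 0.22. *ccnd1*, the D-type cyclin gene that couples growth signals to the cell cycle, had values of 7.28, 7.31 and 7.31 in WT and 7.32, 7.23 and 7.35 in *il7r*-/- larvae. All 6 arrays thus lay close together, WT replicate 3 included, and the change was 0.00 (standard error 0.0994, 95% interval -0.24 to 0.24), the narrowest interval of any member. The cyclin E genes *ccne1* and *ccne2* had changes of 0.22 (standard error 0.165, adjusted p = 0.643) and 0.02, and their partner kinase gene *cdk2* of -0.14. *ccne2* had values of 4.76, 4.41 and 4.57 in WT and 4.44, 4.69 and 4.68 in *il7r*-/- larvae, so the groups overlapped over almost their whole range. In *ccne1* WT replicate 3 (3.52) lay above the other WT arrays (3.08 and 3.09) and within the *il7r*-/- range of 3.30 to 3.63.

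Of the mitotic kinases and cyclins, *cdk1*, which encodes the kinase that drives entry into mitosis, had values of 4.64, 5.04 and 4.57 in WT and 4.42, 4.75 and 4.56 in *il7r*-/- larvae. The groups overlapped, and its change (-0.17) was the furthest below 0 among the mitosis genes (standard error 0.166, 95% interval -0.57 to 0.22, adjusted p = 0.730). *ccna2*, the cyclin A gene that acts in S phase and at the entry into mitosis, had values of 5.65, 5.22 and 4.84 in WT and 5.21, 5.19 and 5.11 in *il7r*-/- larvae. All *il7r*-/- arrays lay inside the wider range of the WT arrays, and the change was -0.07 (standard error 0.207). A further probe set, which names *ccna2* beside a second entry of the same name in capitals, had a change of 0.15 (adjusted p = 0.737). The cyclin B genes *ccnb1*, *ccnb2* and *ccnb3* had changes of -0.03, -0.09 and 0.04. *ccnb1* had values of 4.32, 4.22 and 4.18 in WT and 3.94, 4.19 and 4.49 in *il7r*-/- larvae, so that both the lowest and the highest array were *il7r*-/-. *ccnb2* was dim, with values of 2.85, 3.12 and 3.03 in WT and 2.81, 2.89 and 3.03 in *il7r*-/- larvae.

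The Aurora kinase genes had the largest changes above 0 of the mitosis class, and neither passed the test. *aurka*, whose product works at the spindle poles, had values of 4.87, 4.68 and 4.54 in WT and 5.09, 4.85 and 4.86 in *il7r*-/- larvae. The lowest *il7r*-/- array lay just under the highest WT array, and the change was 0.24 (standard error 0.135, 95% interval -0.09 to 0.56, adjusted p = 0.548). *aurkb*, whose product corrects the attachment of chromosomes to the spindle, had values of 4.13, 4.49 and 3.51 in WT and 4.23, 4.14 and 4.32 in *il7r*-/- larvae. The change of 0.19 (standard error 0.245) rested on the low WT replicate 3, without which it was -0.08. The Polo-like kinase gene *plk1* had a change of 0.12 (95% interval -0.16 to 0.40).

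Changes of the checkpoint and spindle genes lay between -0.09 and 0.11. *bub1* and *bub1bb*, which encode proteins of the spindle checkpoint, had changes of 0.11 and 0.10. *bub1bb* had values of 5.09, 4.84 and 4.55 in WT and 4.83, 4.91 and 5.05 in *il7r*-/- larvae, with both the highest and the lowest array in WT. *cdc20*, the gene of the activator through which the checkpoint acts, had a change of 0.03. *top2a*, which encodes the topoisomerase that untangles sister chromatids, had values of 5.56, 5.47 and 5.36 in WT and 5.35, 5.45 and 5.36 in *il7r*-/- larvae. Its groups overlapped within a narrow band, and the change was -0.08 (standard error 0.108, adjusted p = 0.825). The survivin gene *birc5a* had a change of -0.09, the spindle motor gene *kif11* of 0.01 and the kinetochore motor gene *cenpe* of 0.09 (95% interval -0.15 to 0.33). Both *ccnd1* and *cenpe* had a second, dimmer probe set, with changes of 0.05 and 0.02. Over the 15 mitosis genes the median change was 0.0333, and 6 were below 0.

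Replication genes were slightly lower relative to mitosis genes in *il7r*-/- larvae, by a difference close to the spread between arrays. The median change of the replication genes was 0.0983 below that of the mitosis genes on the log2 scale (a difference of -0.0983). To set the classes against each other within each array, every gene was centred on its mean over the 6 arrays, and the median of the mitosis genes was subtracted from that of the replication genes. This difference was 0.162, 0.0742 and -0.03 in WT and 0.0283, -0.122 and -0.0958 in *il7r*-/- larvae. The groups overlapped through WT replicate 3 and *il7r*-/- replicate 1. The means were 0.0689 ± 0.0964 in WT and -0.0631 ± 0.0802 in mutants (SD, n = 3 each), which differed by -0.132. No p is given for this value, because the members were chosen with results of these arrays known. The class difference stayed below 0 when each array was left out in turn, between -0.143 and -0.0367, the latter without *il7r*-/- replicate 3.

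**Figure D3:**
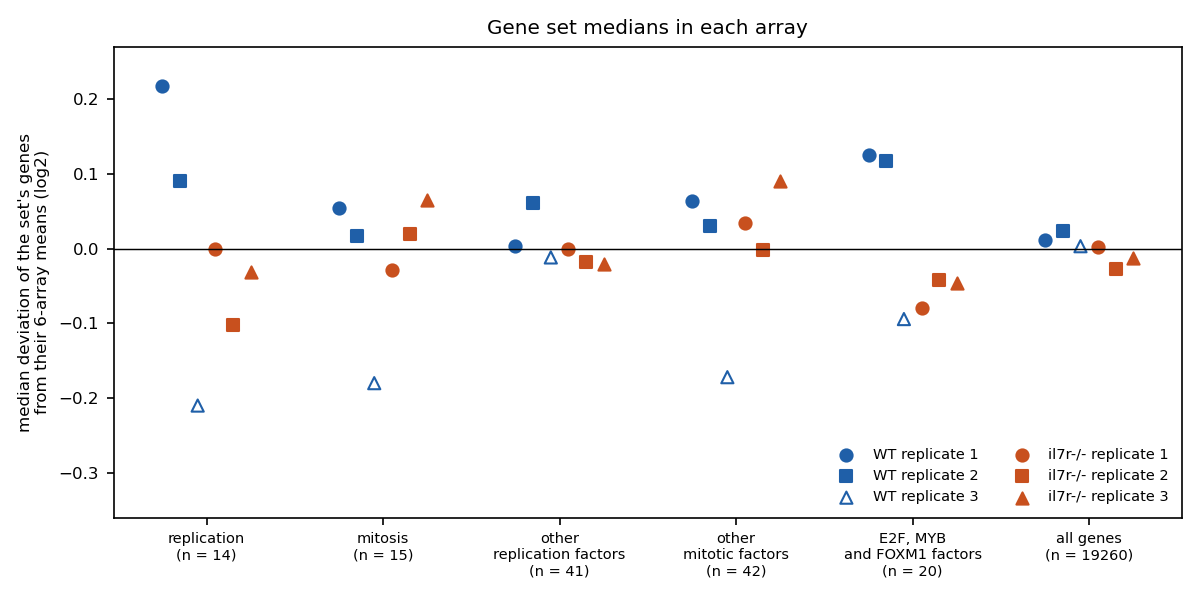
Median deviation of the genes of each set from their own means over the 6 arrays (vertical axis, log2), with 1 point for each array, WT in blue and *il7r*-/- in orange. WT replicate 3 (open triangle) is the lowest array at -0.21 for the replication and -0.18 for the mitosis genes, while the medians of all genes stay between -0.0267 and 0.0233.

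WT replicate 3 held the lowest values of many members, in both classes. Its value was below the mean of the other WT arrays in 12 of 14 replication and 14 of 15 mitosis genes, and in 2 of 4 G1/S genes, against 52% of all genes. It was the lowest of all 6 arrays in 15 of the 33 members (19.4% of all genes). The exceptions among the replication genes were *cdt1* and *cdc45*, which were higher in it by 0.62 and 0.68 than in the other WT arrays. By contrast, WT replicate 1 was the highest array in 8 of 14 replication genes (57.1%) and in 4 of 15 mitosis genes (26.7%), against 17.6% of all genes. The centred median of the replication genes was thus 0.218, 0.0908 and -0.21 in the WT arrays and between -0.102 and 0 in the *il7r*-/- arrays. The spread between WT arrays exceeded that between *il7r*-/- arrays in 12 of 14 replication genes, with median SDs of 0.323 and 0.157, and in 9 of 15 mitosis genes, with 0.142 and 0.111. Over all genes it did so in 59.8%, with median SDs of 0.15 and 0.122, so the share of mitosis genes was that of the background. The 41 further replication factors described below lay nearer to all genes. WT replicate 3 was below the other WT arrays' mean in 56.1% of them, and WT replicate 1 was highest in 24.4%. These shares were 76.2% and 19% in 42 further mitotic factors, and 90% and 40% in 20 E2F, MYB and FOXM1 genes.

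Markers of other tissues also set WT replicate 3 apart from the other WT arrays. It was lower in 5 of 6 skin epithelium markers, whose centred medians were 0.467, 0.534 and -0.609 in WT, and in 9 of 10 skeletal muscle markers, and it was higher in 4 of 5 intestine markers, whose centred medians were -0.19, -0.203 and 0.742. The median level of the skin list was 6.28 to 6.86 in WT and 6.17 to 6.62 in *il7r*-/- arrays, and that of the intestine list 5.22 to 6.45 and 5.25 to 6.00. Cone and rod photoreceptor markers were lower in it in 14 of 14 and lens markers in 9 of 9, though these lists separated the genotypes, with median levels of 6.92 to 7.72 in WT against 6.23 to 6.62 and of 6.77 to 7.42 against 5.64 to 6.22. The genotypes were also apart in the median levels of skeletal muscle (10.02 to 10.21 in WT against 10.25 to 10.36). The same held for neurons (8.4 to 8.43 against 8.27 to 8.37) and liver (4.08 to 4.42 against 3.93 to 4.04). The single neuron genes were mixed, however, with 4 of 9 changes below and 5 above 0, and a median change of 0.06. In 4 of the 9 the groups did not overlap (22.3% of all genes), each with every *il7r*-/- array below (13.4% of all genes). The list of retinal and neural progenitors, cells that divide, had a median change of -0.0333 over 11 genes, of which 6 were below and 5 above 0. Its median level was 5.23 to 5.31 in WT and 5.44 to 5.52 in *il7r*-/- arrays, without overlap. Its centred medians did overlap between the groups (-0.0483 to 0.0233 in WT and -0.0517 to 0.03 in *il7r*-/- arrays). In 5 of the 11 genes the groups did not overlap (22.3% of all genes), 2 with every *il7r*-/- array below and 3 with every one above. Values after RMA have no true 0, so no marker was absent in that sense. The part of these tissues in the members' values was not tested.

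Because WT replicate 3 was low in most members, leaving it out raises the WT mean and lowers the change in those genes by construction, and the values without it are a description of how far the results rest on it. The replication genes then had a median change of -0.198 with 11 of 14 below 0, and none passed the test. In 7 of the 14 replication genes every *il7r*-/- array then lay below both remaining WT arrays, and in 2 of 15 mitosis genes, *ccna2* and *top2a*, where this held in 22.8% of all genes. In *cdt1* and *ccne1* every *il7r*-/- array lay above them (14.8% of all genes). Of the 41 further replication factors described below, 12 (29.3%) had every *il7r*-/- array below both remaining WT arrays. These counts were added after seeing the data. The 7 replication members were *pcna*, *mcm3*, *mcm4*, *mcm6*, *rrm1*, *tyms* and *rpa1*. The change of *pcna* was then -0.27 (standard error 0.110, adjusted p = 0.379), that of *rrm1* -0.40 (0.115, adjusted p = 0.241) and that of *tyms* -0.44 (0.147, adjusted p = 0.300). None of the 33 members was called in that fit (0.317% of all genes were). At an unadjusted p under 0.05, *mcm3*, *rrm1* and *tyms* were lower (10.2% of all genes) and *cdt1* and *ccne1* were higher (4.26% of all genes). Over all 33 members the shares thus lay near those of all genes. The lower genes were 3 of the 14 replication genes and 0 of the 15 mitosis genes. The median of the mitosis genes was -0.075 without that array.

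**Figure D4:**
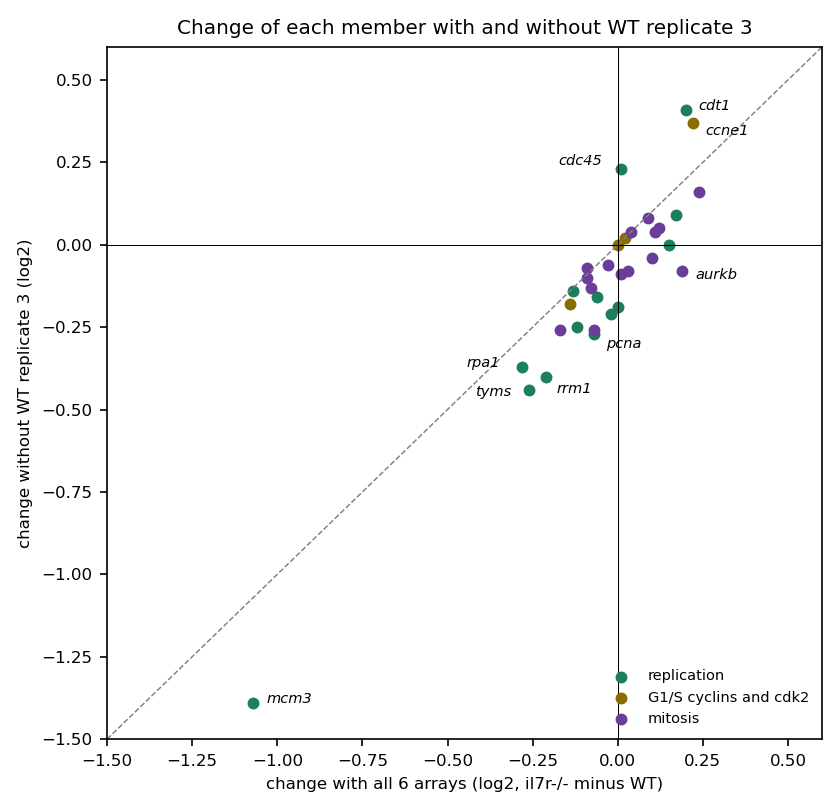
Change of each member with all 6 arrays (horizontal axis) against its change without WT replicate 3 (vertical axis), both log2 and *il7r*-/- minus WT, with the dashed line marking equal values. Most genes lie below the line, among them *pcna*, which moves from -0.07 to -0.27, while *cdt1*, *cdc45* and *ccne1* lie above it.

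Other genes of the same machinery were taken from lists by function, and none of them passed the test either. Among 41 measured further replication factors (origin recognition, polymerases, clamp loader and others), the median change was -0.0367, and 24 were below 0. *pold3*, a subunit gene of DNA polymerase delta, had values of 4.12, 3.91 and 4.06 in WT and 4.79, 4.42 and 4.67 in *il7r*-/- larvae. All its *il7r*-/- arrays lay above the WT arrays, and the change was 0.60 (standard error 0.136, adjusted p = 0.185). Groups without overlap were found in 4 of the 41 genes (22.3% of all genes), 3 with every *il7r*-/- array below and 1 above. Among 15 genes of nucleotide supply the median was -0.153, with 12 below 0 (80%, against 54.4% of all genes). *ctps1a*, which encodes an enzyme of CTP synthesis, had values of 4.94, 5.04 and 4.89 in WT and 4.37, 4.05 and 4.64 in *il7r*-/- larvae. Its groups did not overlap either, and the change was -0.60 (standard error 0.167, adjusted p = 0.248).

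Among 42 further mitotic factors the median was 0.06 and 25 were above 0, and without adjustment 4 had a higher and 1 a lower value at a p under 0.05 (4.08% and 8.27% of all genes). The brightest of them were *ckap5*, a microtubule polymerase gene, with a change of -0.24, and *ube2c*, the gene of a ubiquitin-conjugating enzyme that serves the exit from mitosis, with -0.09. The 4 higher ones, named after their values were seen, were the kinetochore gene *nuf2* (0.50), the separase gene *espl1* (0.39), the chromokinesin gene *kif4* (0.35) and the spindle gene *hmmr* (0.33), and the lower one was the kinase gene *mastl* (-0.38). Of 20 condensin and cohesin genes, 10 were above and 10 below 0, with a median of 0.0167. In 6 of them the groups did not overlap (22.3% of all genes). Every *il7r*-/- array lay above in 5 and below in 1 (8.84% and 13.4% of all genes). *smc1a*, a core cohesin gene, had values of 5.06, 5.92 and 5.67 in WT and 6.23, 6.29 and 6.34 in *il7r*-/- larvae. All its *il7r*-/- arrays lay above the WT arrays, of which WT replicate 1 was far below the rest, and the change was 0.74 (standard error 0.222, adjusted p = 0.278). The brighter genes *smc1al* and *smc3* of the same list had changes of -0.04 and 0.04.

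No regulator of the cycle passed the test, although some had groups that did not overlap. Of 20 genes of E2F, MYB and FOXM1 factors and their partners, which control the transcription of replication and mitosis genes, 15 were below 0 (all genes 54.4%), with a median of -0.10. Groups without overlap were found in 5 of them (22.3% of all genes), each with every *il7r*-/- array below (13.4% of all genes). The centred medians of the 20 genes were 0.126, 0.117 and -0.0942 in WT and -0.08, -0.0425 and -0.0458 in *il7r*-/- larvae. All *il7r*-/- arrays lay between WT replicate 3, the lowest, and the other WT arrays, as they did for the replication genes, though the *il7r*-/- arrays stood in a different order. *e2f4* had values of 6.42, 6.32 and 6.12 in WT and 5.95, 6.04 and 5.81 in *il7r*-/- larvae. The groups of *e2f4* did not overlap, and its change was -0.35 (standard error 0.128, adjusted p = 0.357). *tfdp2*, the gene of an E2F partner, had a change of -0.25, or -0.15 with its 2 probe sets averaged. Of 13 further genes of G1 and of CDK control 11 were below 0, with a median of -0.08, and *cdk6* and *cdk4* had changes of -0.17 and -0.19. Over 25 genes of CDK inhibitors and p53 targets the median was -0.0167, with 13 below and 12 above 0. In 11 the groups did not overlap (22.3% of all genes), 5 with every *il7r*-/- array below and 6 with every one above. At an unadjusted p under 0.05, 2 were higher and 2 lower (4.08% and 8.27% of all genes). The brightest of the list, the antiproliferative genes *btg1* and *tob1b*, had changes of -0.13 and -0.25. Averaged over its 3 probe sets, the change of *btg1* was -0.05. The groups of *tob1b* did not overlap, at 8.06 to 8.14 in WT and 7.83 to 7.87 in *il7r*-/- larvae (adjusted p = 0.381). Over 17 genes of the replication checkpoint and repair the median was -0.04, with 0.18 in *atm* and -0.04 in *xrcc1*.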

How the data were processed

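The authors hybridized RNA of pooled larvae to the Affymetrix Zebrafish Gene ST array, and the deposited values were made with RMA per the labels and read as log2 from their range. The annotation behind the probe sets is that of the platform record. Of 75212 probe sets, 20806 named 1 gene, 855 several and 53551 no gene, while 1365 genes were named by several probe sets. Values were used as deposited. Genotypes were compared in R 4.3.3 with limma 3.58.1 (lmFit and eBayes, two-sided, genotype as the only factor), with Benjamini-Hochberg adjustment over all 75212 probe sets and no filter on dim ones. The members, their classes and the other gene lists were chosen with earlier results of these data known, so no list was tested as a set. Values in every array are given for members with an unadjusted p under 0.05, the 2 brightest of each class, and the 2 highest and 2 lowest changes of the replication and mitosis classes, and for some others as context. From each further list the text names called genes, otherwise those with an unadjusted p under 0.05 and over 1.5-fold, otherwise the 2 brightest. The procedure was tested on simulated data. Alternatives were the methods' t-test, an intensity trend with robust prior, unadjusted p, no fold threshold or a fold over 2, quantile normalization, median centring, a filter on the lowest tertile, only probe sets of 1 gene, averaged probe sets for each gene, array weights, the replicate number as a block, and omission of each array in turn. No genome was used, and sequences were not analysed here.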

Additional observations from a re-analysis of the deposited data

How the results depend on the processing

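No member was called higher or lower under any alternative except with unadjusted p, where 1 (*mcm3*) was lower. The methods' t-test called no member, with or without adjustment. Of the named genes outside the members, *pold3* and *smc1a* were called higher and *ctps1a* lower without adjustment, by that test and by limma. An unadjusted limma p under 0.05 was found in 12.3% of all genes. With adjustment none of these genes was called. When each array was left out in turn, the median change ran from -0.198 to -0.00667 for the replication genes and from -0.075 to 0.0983 for the mitosis genes, the lowest of each without WT replicate 3 and the highest without WT replicate 1, and their difference from -0.143 to -0.0367. The median of the mitosis genes was also below 0 (-0.0367) without *il7r*-/- replicate 3. The count of members below 0 ran from 13 to 22. With array weights, which gave a median of -0.125 for the replication and -0.0173 for the mitosis genes, 19 of 33 were below 0. The other scalings gave -0.0439 and -0.075 for the replication genes (quantile normalization and median centring), and shifted the median of all probe sets by 0.0106 and -0.01. Of the 27 genes chosen by the naming rule, 6 changed sign without single arrays, over ranges of -0.27 to 0.05 (*pcna*), -0.26 to 0.14 (*ccna2*), -0.08 to 0.41 (*aurkb*), -0.06 to 0.11 (*ccne2*), -0.21 to 0 (*ube2c*) and -0.13 to 0.06 (*xrcc1*). Of the other members, *cdc20*, *bub1bb* and *kif11* changed sign without WT replicate 3, to -0.08, -0.04 and -0.09. So did the replication genes *rpa2*, from just above 0 to -0.19, and *cdc6*, from 0.15 to just below 0. Deviations of arrays with the same replicate number correlated at 0.0467, 0.00465 and 0.0809 over all genes. The highest correlations of the WT arrays with an *il7r*-/- array of another number were 0.0225, 0.0333 and -0.0213. Of the 6 arrays, 4 correlated best with their own number. These small values do not settle whether the numbers pair the arrays, and the main fit did not pair them. With the replicate block no member was called (1 probe set was, against 224), and the median of the replication genes was -0.065, as without it. The cause of these shifts was not tested. With 3 arrays a group, a change anywhere within a gene's 95% interval remained possible. *mcm3* was not called although its interval left out 0.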
